A study of Mus musculus with 15 samples.

Results

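The genes described here form a module of 41 genes for amino acid uptake, the amino acid stress response, serine and one-carbon metabolism and the charging of tRNAs. They were chosen by name from a written list, and all 41 were found among the 17493 genes of the count tables. By role they divide into 8 amino acid transporters, 8 genes of the ATF4 pathway, 12 enzymes of serine, one-carbon, proline and alanine metabolism, and 13 cytosolic aminoacyl-tRNA synthetases. The low-count filter left 37 members among 10831 genes tested. The 4 members that it removed were Slc1a4, Chac1, Pycr1 and Cth.

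RNA was measured in bulk from CD8+ T lymphocytes of female OT-1 mice (C57BL/6-Tg(TcraTcrb)1100Mjb/Crl), which carry a transgenic T cell receptor for a peptide of ovalbumin. The study set an artificial stimulus beside a cellular one, each against unstimulated cells, in 15 libraries that form 5 groups of 3. The 3 unstimulated libraries were taken at 0 h. The other groups were cultured for 8 h or 22 h, at 50000 T cells per well, either with 5 ng/ml of immunofilaments (IF) or with 20000 Flt-3Ligand dendritic cells (DC). Immunofilaments are synthetic filaments, which here carried interleukin-2 and MHC loaded with SIITFEKL, a variant of the ovalbumin peptide. The dendritic cells were pulsed with the same peptide, and interleukin-2 is named for the immunofilaments only. No group was cultured without a stimulus, so time in culture and stimulation cannot be told apart in the comparisons with 0 h. All T cells came from spleen and lymph nodes, the medium was supplemented with L-glutamine in every group, and viable CD8+ CD103- cells were sorted before RNA extraction. The age of the mice is not given in the sources used here. The libraries of each group are titled Don1, Don2 and Don3, called replicates 1 to 3 here. The labels do not say what the title stands for or whether a number marks the same animal in each group, so p-values measure the spread between these libraries.

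A T cell that leaves rest grows before it divides, and it then depends on amino acids from outside. The heterodimer of Slc7a5 and Slc3a2 imports large neutral amino acids, Slc1a5 and the Slc38 transporters carry glutamine and other small neutral amino acids, and Slc7a1 carries arginine and lysine. Synthetases load each amino acid onto its tRNA. When uncharged tRNA accumulates or the endoplasmic reticulum is stressed, phosphorylation of eIF2 lowers general translation but favours translation of Atf4, a transcription factor whose known targets include Asns, Trib3, Chac1, Ddit3, Sesn2, serine synthesis enzymes and many synthetases. Atf4 is therefore controlled largely at translation, which mRNA counts do not read. Serine hydroxymethyltransferases pass a carbon from serine to folate, and the Mthfd enzymes convert the folate forms used in purine and thymidylate synthesis.

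Total counts per library ranged from 2892874 to 19806730, and members took 0.231% to 0.483% of them. The summed level of 8 CD8 T cell markers was 8623 to 9364 CPM (normalised read counts, scaled to a common TMM library size) in unstimulated libraries and 3898 to 6278 CPM in stimulated ones, and Cd4 was at 0 in all libraries but 1 at IF 22 h, where it was 1.48 CPM. The summed level of 14 dendritic cell markers was 642 to 1533 CPM in unstimulated libraries, with 210 to 463 (IF 8 h), 844 to 1230 (DC 8 h), 372 to 628 (IF 22 h) and 466 to 635 (DC 22 h) in stimulated ones. The sum is made up mostly of MHC class II genes, Cd74 and Cst3, and single markers differed from it: Fscn1, of mature dendritic cells, had 0 to 6.75 CPM in unstimulated libraries, 0.268 to 0.663 at IF 8 h, 126 to 168 at DC 8 h, 5.83 to 43.8 at IF 22 h and 72.9 to 94.8 at DC 22 h. The chemokine Ccl22 had at most 0.147 CPM in unstimulated libraries, 2.98 with filaments at 8 h and 1.55 at 22 h, against 10.3 to 18.2 with dendritic cells at 8 h and 6.41 to 11.1 at 22 h. Of the 14 markers, 3 were wholly above the unstimulated libraries at DC 8 h and at DC 22 h (Fscn1, Ccl22 and Flt3), 1 at IF 22 h and 0 at IF 8 h, while 4 and 5 were wholly below them with dendritic cells at 8 h and 22 h and 6 and 3 with filaments. Compared directly, 10 markers were wholly higher with dendritic cells than with filaments at 8 h and 1 lower, and at 22 h 2 were higher and 1 lower. Ccl17 was at 0 in the unstimulated group and Batf3 at IF 8 h, and the part of dendritic cell RNA in the member values was not tested. IF 22 h replicates 2 and 3 stood apart, with 0.179% and 0.146% of counts in mitochondrial ribosomal RNA against 1.82% to 4.49% in the other libraries. In bulk RNA, fewer cells of a type and less RNA per cell cannot be told apart.

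Members changed in both directions after stimulation. Trib3, an ATF4 target and pseudokinase, went from no count to a measurable level in each stimulated group. The mRNA of Atf4 itself was lower in each, at DC 8 h without passing the test. The glutamine transporter Slc38a2 fell in all 4 comparisons with unstimulated cells. The cytosolic serine hydroxymethyltransferase Shmt1 rose in 3 of these comparisons in the main edgeR fit (TMM scaling, low-count filter, all 15 libraries). The tryptophanyl-tRNA synthetase Wars rose with both stimuli at 8 h. No member passed the test between the stimuli, between the times, or for a change of the IF-DC difference with time.

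At IF 8 h, 8 of 37 tested members (21.6%) passed an adjusted p of 0.05 against unstimulated cells (edgeR quasi-likelihood test, Benjamini-Hochberg over all genes tested), where 7.76% of all genes did. Of these, 5 were higher (3.04% of all genes) and 3 lower (4.72% of all genes). At DC 8 h, 5 members (13.5%) passed, 4 higher and 1 lower, against 6.82% of all genes, 2.75% higher and 4.07% lower. At IF 22 h, 4 members (10.8%) passed, 2 in each direction, against 6.08% of all genes, 2.63% higher and 3.44% lower. At DC 22 h, 8 members (21.6%) passed, 4 in each direction, against 7.76% of all genes, 3.41% higher and 4.35% lower.

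These counts depended on single libraries: with 1 left out they ran from 1 to 6, 1 to 5, 2 to 4 and 2 to 15 members, in the same order. At IF 8 h the count was 1 without unstimulated replicate 1 or 2, when 463 and 438 of all genes passed in place of 840, and at DC 22 h it was 15 without DC 22 h replicate 3 (984 of all genes) and 2 without unstimulated replicate 1 or 3 (481 and 485).

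The stimulated and unstimulated libraries did not overlap for 21 members with filaments at 8 h (30.6% of all genes), 14 with dendritic cells at 8 h (28.2% of all genes), 16 with filaments at 22 h (30.4% of all genes) and 12 with dendritic cells at 22 h (27.1% of all genes). The median log2 fold change of the members was 0.48, 0.44, 0.24 and 0.41 in these comparisons (IF 8 h, DC 8 h, IF 22 h, DC 22 h), where the median of all genes was 0.02, 0.04, 0.01 and 0.04. The members' medians were the same with Trib3 set to its lower bound. The direction of the counts depended on the scaling. With library size alone in place of TMM, the median of all genes moved to 0.26, 0.30, 0.22 and 0.37, and the split of members into higher and lower became 13 and 0, 7 and 0, 3 and 2, and 11 and 1, in the same order. Under that scaling the calls for lower levels that remained were Slc38a2 at 22 h with both stimuli and Atf4 at IF 22 h, and no member past the threshold changed direction. Changes below are relative to the TMM scale.

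**Figure D1:**
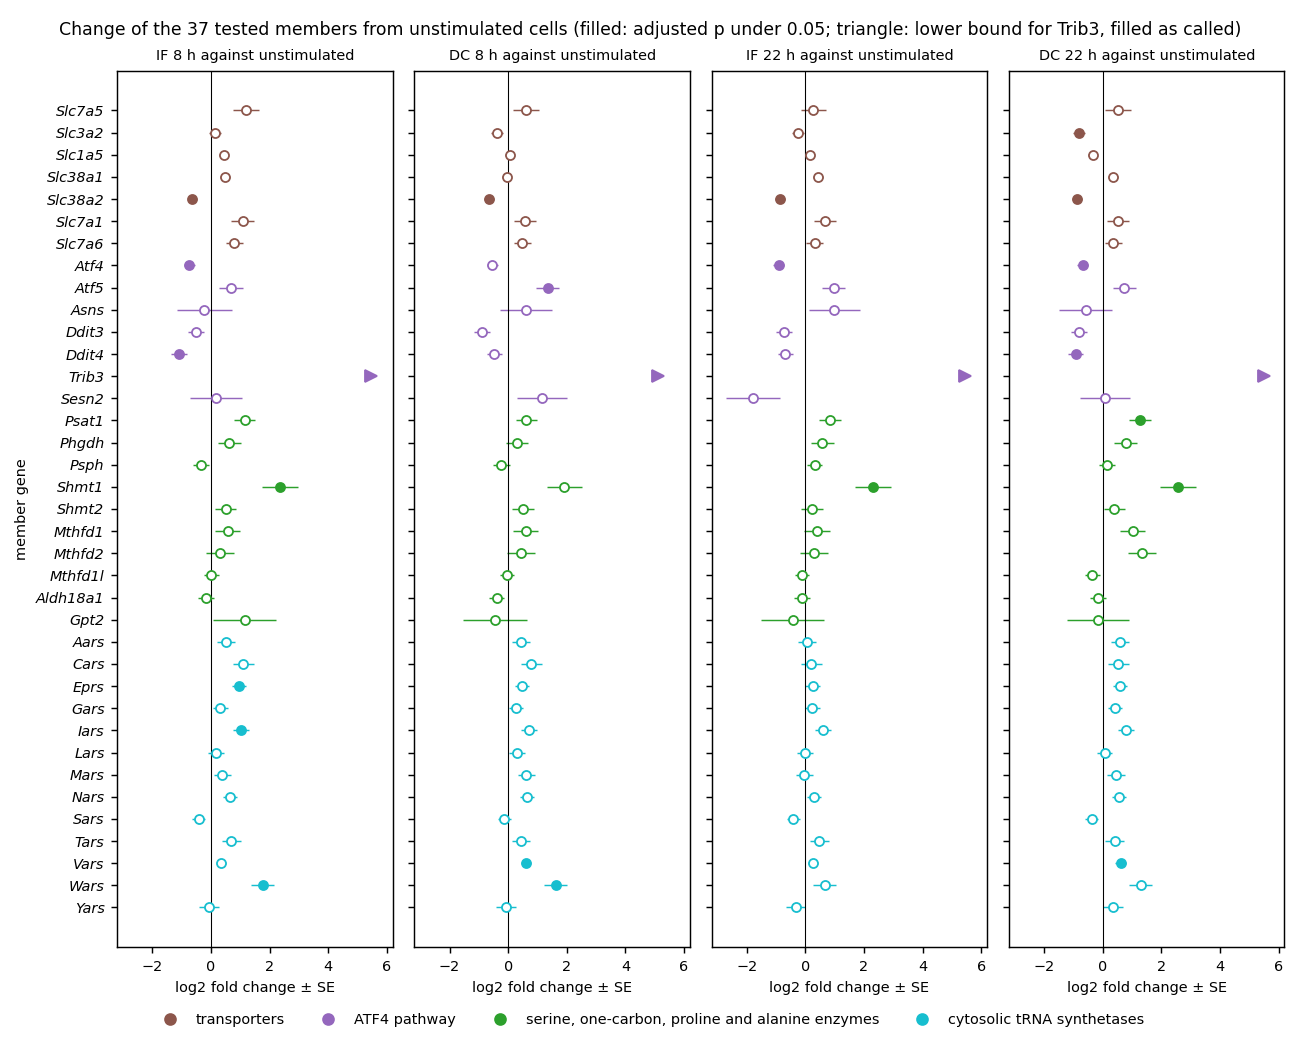
Log2 fold change (x axis, with SE) of each of the 37 tested members (y axis) against unstimulated cells, in 1 panel per stimulated group, with 3 libraries per group; points are coloured by role, filled points passed an adjusted p of 0.05, and the triangle is the lower bound for Trib3. Slc38a2 lies below 0 in each panel and Shmt1 above 1.9, and most synthetases lie slightly above 0.

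Among the transporters, the decrease of Slc38a2 was the change that recurred in the main edgeR fit, and no tested transporter passed as higher in it. Other fits called transporters higher at IF 8 h: Slc38a1 (adjusted p = 0.0231) and Slc1a5 (0.0445) with DESeq2, and Slc7a5 (0.00148), Slc7a1 (0.000864) and Slc38a1 (0.0472) with edgeR on the 2 groups only. Library size alone called Slc1a5 (0.0131), Slc38a1 (0.012), Slc7a1 (0.0439) and Slc7a6 (0.0357) there. The fit without the low-count filter called Slc7a5 (0.000952) and Slc7a1 (0.000432), and that without IF 8 h replicate 2 called Slc38a1 (0.0388). At 22 h, library size alone called Slc38a1 higher with filaments (0.0231) and dendritic cells (0.0113), and 2 groups only called Slc7a1 higher with filaments (0.0431). In the main fit, 2 of 7 tested transporters were lower at DC 22 h and 1 in each of the other comparisons with unstimulated cells. Slc38a2 (chr15:96687392-96699730, minus strand, GRCm38), a sodium-coupled importer of glutamine and alanine, had 166, 164 and 202 CPM in the unstimulated libraries. It had 126, 104 and 114 CPM at IF 8 h, 122, 92.3 and 121 at DC 8 h, 97.1, 96.3 and 97 at IF 22 h, and 90.4, 85.4 and 114 at DC 22 h. All 12 stimulated libraries lay below the 3 unstimulated ones, which held for 5.35% of all genes. Slc38a2 fell by 0.63 ± 0.17 on the log2 scale (SE) at IF 8 h (adjusted p = 0.0309), by 0.67 ± 0.17 at DC 8 h (0.0221), by 0.87 ± 0.17 at IF 22 h (0.00479) and by 0.87 ± 0.17 at DC 22 h (0.00398). With either low-rRNA library of IF 22 h left out alone the call held, and without both it did not (adjusted p = 0.181 at the same -0.87). At IF 8 h the adjusted p was 0.0522 to 0.123 with any 1 library left out, and at DC 8 h the call ended without unstimulated replicate 3 (0.107) or DC 8 h replicate 2 (0.102).

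Slc3a2, the heavy chain that carries Slc7a5 to the membrane, fell at DC 22 h. Its level was 281, 255 and 319 CPM in unstimulated libraries, 327, 261 and 350 at IF 8 h, 211, 248 and 192 at DC 8 h, 199, 247 and 270 at IF 22 h, and 126, 212 and 152 at DC 22 h. The DC 22 h libraries all lay under the unstimulated ones, by 0.81 ± 0.20 on the log2 scale (adjusted p = 0.0191), and at IF 8 h the groups overlapped. The DC 22 h call ended without unstimulated replicate 1 (0.0593), unstimulated replicate 3 (0.0947) or DC 22 h replicate 1 (0.0939). It also ended with 2 groups only (0.0708) and with library size alone (0.104). Slc7a5, the light chain that transports the amino acids, had 24.4 to 26.6 CPM in unstimulated libraries and 50.1 to 70.1 at IF 8 h, without overlap, with a log2 fold change of 1.19 ± 0.45 (adjusted p = 0.118). Its range was 22.9 to 59.1 CPM at DC 8 h, 21.1 to 36.8 at IF 22 h and 16.2 to 70.3 at DC 22 h, all of which overlapped the unstimulated range.

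Slc38a1, another glutamine transporter, had 119, 119 and 124 CPM in unstimulated libraries and 187, 136 and 180 at IF 8 h, a log2 fold change of 0.48 ± 0.16 (adjusted p = 0.0757). It had 128, 114 and 108 CPM at DC 8 h, 181, 147 and 158 at IF 22 h, and 159, 160 and 142 at DC 22 h. Its libraries at 22 h all lay above the unstimulated ones with both stimuli, and at DC 8 h they did not. The cationic transporter Slc7a1 had 57, 56.2 and 40.5 CPM in unstimulated libraries, 112, 107 and 107 at IF 8 h, 58.4, 131 and 40.1 at DC 8 h, 82.2, 71.4 and 89 at IF 22 h, and 49.6, 125 and 45.5 at DC 22 h. With immunofilaments its libraries were all above the unstimulated range, while among DC libraries only replicate 2 was far above it at either time. The log2 fold change of Slc7a1 at IF 8 h was 1.08 ± 0.39 (adjusted p = 0.102).

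Slc1a5, the exchanger of glutamine against other neutral amino acids, had 329, 274 and 309 CPM in unstimulated libraries, 482, 344 and 401 at IF 8 h, 328, 306 and 307 at DC 8 h, 340, 298 and 372 at IF 22 h, and 217, 263 and 233 at DC 22 h. The IF 8 h libraries were above the unstimulated ones and the DC 22 h libraries below them, neither past the threshold in the main edgeR fit. Slc7a6, a partner of Slc3a2 that exchanges cationic against neutral amino acids, had 9.98, 9.22 and 16.8 CPM in unstimulated libraries, 25.9, 17.9 and 17.7 at IF 8 h, 13.2, 23.5 and 13.2 at DC 8 h, 13.8, 14.9 and 15.4 at IF 22 h, and 15, 16.6 and 13.8 at DC 22 h. Only the IF 8 h libraries lay wholly above the unstimulated range. The untested Slc1a4, a transporter of alanine, serine and cysteine, had at most 0.698 CPM in an unstimulated library and 0.892 to 3.48 CPM at IF 8 h.

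**Figure D2:**
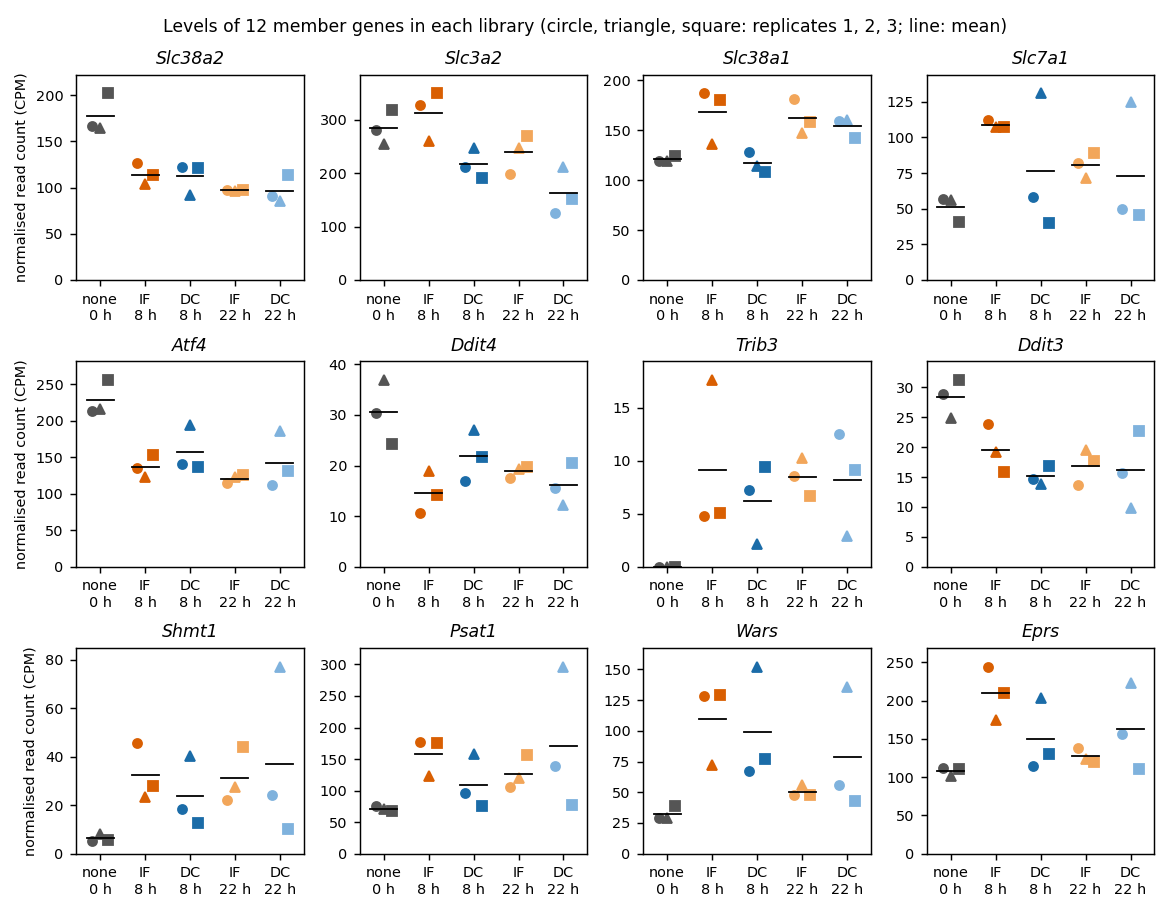
Normalised read counts (CPM, y axes starting at 0) of 12 members in each of the 15 libraries, by group (x axis); circles, triangles and squares are replicates 1, 2 and 3 and the black line is the mean of 3. Trib3 is at 0 in the 3 unstimulated libraries, Slc38a2, Atf4 and Ddit3 are lower in all 12 stimulated libraries than in any unstimulated one, and the blue triangles of DC replicate 2 lie high for Slc7a1, Shmt1, Psat1, Wars and Eprs.

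In the ATF4 pathway, Trib3 rose while Atf4 and Ddit4 fell. Of 7 tested genes, 1 was higher and 2 lower with filaments at 8 h, 2 higher and 0 lower with dendritic cells at 8 h, 1 higher and 1 lower with filaments at 22 h, and 1 higher and 2 lower with dendritic cells at 22 h. Trib3 (chr2:152337422-152344032, minus strand, GRCm38), a pseudokinase that binds Ddit3 and Akt, had 0 counts in each unstimulated library. It had 4.82, 17.6 and 5.09 CPM at IF 8 h, 7.23, 2.11 and 9.4 at DC 8 h, 8.57, 10.3 and 6.69 at IF 22 h, and 12.5, 2.88 and 9.14 at DC 22 h. Against the limit that 0 counts allow (3 counts over the unstimulated group, 0.18 CPM), the pooled level was at least 44.5-fold higher with filaments and 34.2-fold higher with dendritic cells at 8 h, and at least 44.1-fold and 45.6-fold higher at 22 h. The adjusted p was 0.00107, 0.00202, 0.00127 and 0.00119 in the same order, and Trib3 passed under every alternative run. All 12 stimulated libraries were above the unstimulated ones, which held for 2.82% of all genes. The untested Chac1, which degrades glutathione, also had 0 counts in the unstimulated group. It had 20, 7 and 7 counts at DC 8 h, at least 7.56-fold above the same limit, 0, 1 and 13 counts at IF 22 h, and 1 count in all at both IF 8 h and DC 22 h.

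Trib3, Chac1 and Asns, the asparagine synthetase, are textbook targets of ATF4, and the letters of the amino acid response element through which it acts (TGATGNAA, searched on both strands) were found in the promoter window of each. The windows are from RefSeq (GRCm38.p6) and run from 250 bases before to 50 after a transcript start. A stretch of 30 bases around each match is shown on the strand of the gene, with the match in capitals, because the 3 genes share the letters and differ in their counts: Trib3 and Chac1 start from 0 and Asns does not.
Trib3, chr2:152344028-152344057, minus strand: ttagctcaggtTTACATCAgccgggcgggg
Chac1, chr2:119351038-119351067, plus strand: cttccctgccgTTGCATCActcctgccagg
Asns, chr6:7693214-7693243, minus strand: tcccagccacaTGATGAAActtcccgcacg

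Asns had 0.931 to 1.61 CPM in unstimulated libraries and 0 to 3.35 CPM in stimulated ones, and it passed in no comparison. Atf4 had 214, 217 and 256 CPM in unstimulated libraries, 135, 123 and 153 at IF 8 h, 141, 194 and 137 at DC 8 h, 115, 123 and 126 at IF 22 h, and 112, 186 and 132 at DC 22 h. All 12 stimulated libraries were below the unstimulated ones. Atf4 fell by 0.74 ± 0.19 on the log2 scale at IF 8 h (adjusted p = 0.0287), by 0.91 ± 0.19 at IF 22 h (0.00924) and by 0.68 ± 0.19 at DC 22 h (0.0394). At DC 8 h it did not pass, and without the second DC library it did, at -0.72 (0.0066). At IF 8 h the adjusted p was 0.0531 to 0.111 with any 1 library left out. At IF 22 h the call ended without unstimulated replicate 3 (0.0535) and without both low-rRNA libraries (0.182). At DC 22 h it ended in 5 of 6 fits that left out 1 library, where the adjusted p reached 0.171. The exception was the fit without DC 22 h replicate 2 (0.00836). The DC 22 h call also ended with 2 groups only (0.12).

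Ddit4, an inhibitor of mTORC1, had 30.4, 36.9 and 24.2 CPM in unstimulated libraries, 10.7, 18.9 and 14.2 at IF 8 h, 16.9, 27.1 and 21.7 at DC 8 h, 17.6, 19.4 and 19.7 at IF 22 h, and 15.6, 12.3 and 20.5 at DC 22 h. It was below the unstimulated range in 11 of 12 stimulated libraries, the exception being DC 8 h replicate 2. Ddit4 fell by 1.08 ± 0.27 on the log2 scale at IF 8 h (adjusted p = 0.0239) and by 0.92 ± 0.26 at DC 22 h (0.0412). Leaving out 1 library ended the first call in 4 of 6 fits (adjusted p up to 0.111) and the second in 5 of 6 (up to 0.186). The second also ended with 2 groups only (0.0888) and without the second DC library at both times (0.128). Both ended with library size alone (0.0622 and 0.134). Ddit3 (CHOP, a transcription factor of the stress response) had 28.8, 24.9 and 31.2 CPM in unstimulated libraries, 23.9, 19.2 and 15.8 at IF 8 h, 14.6, 13.9 and 16.9 at DC 8 h, 13.6, 19.5 and 17.6 at IF 22 h, and 15.7, 9.84 and 22.7 at DC 22 h. Its 12 stimulated libraries too lay below the unstimulated ones. Its smallest adjusted p in the main edgeR fit was at DC 8 h, with a log2 fold change of -0.90 ± 0.28 (adjusted p = 0.0598). Ddit3 passed at DC 8 h with DESeq2 (0.0249) and with 2 groups only (0.0291), and at DC 22 h without replicate 3 (0.0182). Ddit3 shares exonic bases with the methionyl-tRNA synthetase gene Mars on the other strand, and whether the counting used strand is not given in the sources used here.

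Atf5, a relative of Atf4, had 2.64, 5.78 and 2.56 CPM in unstimulated libraries, 6.07, 6.3 and 5.36 at IF 8 h, 8.81, 8.32 and 11 at DC 8 h, 5.36, 8.61 and 7.61 at IF 22 h, and 5.35, 4.53 and 8.37 at DC 22 h. Only the DC 8 h libraries were clear of the unstimulated range, and Atf5 rose there by 1.35 ± 0.39 on the log2 scale (adjusted p = 0.045). The adjusted p was 0.0205 without unstimulated replicate 2 and 0.0844 to 0.157 with any other library left out, and the call also ended without the low-count filter (0.0744), with 2 groups only (0.076) and without the second DC library at both times (0.0592). Atf5 shares exonic bases with Nup62 on the other strand. Sesn2, a leucine sensor upstream of mTORC1, had 0.587, 0.904 and 1.4 CPM in unstimulated libraries, 0.714, 0.332 and 2.14 at IF 8 h, 1.98, 2.98 and 1.32 at DC 8 h, 0.238, 0.359 and 0.204 at IF 22 h, and 0.91, 0.332 and 1.71 at DC 22 h. Its lowest group was IF 22 h, below each unstimulated library, and at these low levels it passed in no comparison.

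Among the enzymes, Shmt1 and Psat1 were the members that passed. Of 10 tested enzymes, 1 was higher with filaments at each time, and with dendritic cells 0 were higher at 8 h and 2 at 22 h, and none was lower past the threshold in these 4 comparisons. Shmt1 (chr11:60788104-60811718, minus strand, GRCm38), the cytosolic serine hydroxymethyltransferase, had 5.14, 7.95 and 5.82 CPM in unstimulated libraries. It had 45.9, 23.2 and 27.9 CPM at IF 8 h, 18.4, 40.2 and 12.8 at DC 8 h, 22.1, 27.4 and 44.2 at IF 22 h, and 24.1, 77.1 and 10.3 at DC 22 h. Every stimulated library was above the unstimulated ones, and the DC libraries spread most. Shmt1 rose 5.17-fold at IF 8 h (log2 2.37 ± 0.61, adjusted p = 0.0269), 4.97-fold at IF 22 h (2.31 ± 0.61, 0.0316) and 5.88-fold at DC 22 h (2.56 ± 0.61, 0.0159). At DC 8 h its log2 fold change was 1.92 ± 0.60 (adjusted p = 0.0673), and it passed there with DESeq2 (0.0114), library size alone (0.0343), 2 groups only (0.0153), no low-count filter (1.58e-06) and without DC 8 h replicate 3 (0.0485). Without both low-rRNA libraries the IF 22 h value was 1.81 (adjusted p = 0.412), and without the second DC library at both times the DC 22 h value was 1.46 (0.0448). With 1 library left out, Shmt1 passed in 1 of 6 fits at IF 8 h, 1 of 6 at IF 22 h and 3 of 6 at DC 22 h. The adjusted p then reached 0.107 and 0.129 with filaments at 8 h and 22 h, and 0.103 with dendritic cells at 22 h. The gene on the other strand that shares exonic bases with Shmt1, Smcr8, was at 7.05, 7.59 and 16.8 CPM in unstimulated libraries and at 3.32 to 9.56 CPM in stimulated ones.

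Psat1, the aminotransferase of serine synthesis, had 75.5, 70.5 and 67.3 CPM in unstimulated libraries, 177, 123 and 175 at IF 8 h, 95.5, 158 and 75 at DC 8 h, 105, 120 and 156 at IF 22 h, and 139, 296 and 76.4 at DC 22 h. It was above the unstimulated range in 11 of 12 stimulated libraries, and DC replicate 3 was within that range at 8 h and just over it at 22 h. Psat1 rose 2.4-fold at DC 22 h (log2 1.26 ± 0.37, adjusted p = 0.0456), and the value was 0.62 (0.15) without the second DC library at both times. The DC 22 h call also ended with 2 groups only (0.0997). The adjusted p was 0.0044 without DC 22 h replicate 3 and 0.0625 to 0.271 with any other library left out. Its log2 fold change at IF 8 h was 1.15 ± 0.37 (adjusted p = 0.0686), without overlap, and it passed there with DESeq2 (0.0231), library size alone (0.0286), 2 groups only (0.000532) and no low-count filter (4.46e-05). At IF 22 h Psat1 passed with 2 groups only (0.0124) and no filter (0.00503). Phgdh, the first enzyme of the serine pathway, had 18.8, 21.5 and 13.5 CPM in unstimulated libraries, 20.2, 29.8 and 33.8 at IF 8 h, 22.4, 28.7 and 15.6 at DC 8 h, 18.8, 25.3 and 36.4 at IF 22 h, and 33.5, 46.1 and 13.6 at DC 22 h, and its groups overlapped throughout.

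The mitochondrial enzymes of the folate cycle did not pass in the main edgeR fit. Mthfd2, which is low in most resting adult tissues, had 31, 19 and 19.1 CPM in unstimulated libraries, 35.9, 21.2 and 28.4 at IF 8 h, 28.6, 49.1 and 16.3 at DC 8 h, 23, 30.5 and 31.6 at IF 22 h, and 40.5, 113 and 21.3 at DC 22 h. A single library, DC 22 h replicate 2, stood far above the rest, and the log2 fold change at DC 22 h was 1.33 ± 0.48 (adjusted p = 0.107), or 0.44 (0.509) without the second DC library at both times. Mthfd2 passed there with DESeq2 (1.34, 0.0463), without the low-count filter (0.000156), with library size alone (0.032) and without DC 22 h replicate 3 (0.018). Mthfd1, the cytosolic trifunctional enzyme, had 45.1, 38.9 and 50 CPM in unstimulated libraries, 85.8, 48.7 and 63.5 at IF 8 h, 65.4, 91.9 and 44.9 at DC 8 h, 44.3, 56.4 and 74.2 at IF 22 h, and 68.5, 170 and 32 at DC 22 h. Here again DC 22 h replicate 2 was the highest library. The log2 fold change of Mthfd1 at DC 22 h was 1.02 ± 0.43 (adjusted p = 0.173), and it passed with library size alone (0.0474), no low-count filter (0.00143) and without DC 22 h replicate 3 (0.0194). Aldh18a1, which begins proline synthesis, had 15, 16.4 and 10.9 CPM in unstimulated libraries, 11.8, 12.3 and 13.9 at IF 8 h, 10, 12 and 10.1 at DC 8 h, 9.76, 13.5 and 15.5 at IF 22 h, and 13, 16 and 9.06 at DC 22 h, with group means of 10.7 to 14.1 CPM.

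The remaining tested enzymes passed in none of these comparisons. Shmt2, the mitochondrial serine hydroxymethyltransferase, had 333 to 496 CPM in unstimulated libraries and 294 to 945 CPM in stimulated ones, the highest in DC replicate 2 at both times. Psph, the phosphatase that completes serine synthesis, had 21.9 to 30 CPM in unstimulated libraries and 13.9 to 41.5 CPM in stimulated ones, and Mthfd1l, which makes formate in mitochondria, had 64.3 to 72.2 and 34.2 to 83.2 CPM. Gpt2, a mitochondrial alanine aminotransferase, did not exceed 2.68 CPM in any library. Of the untested enzymes, Pycr1 (proline synthesis) did not exceed 1.88 CPM, and Cth (cysteine synthesis) did not exceed 0.931 CPM and was at 0 at IF 8 h, DC 8 h and IF 22 h.

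Among the synthetases, Wars, Eprs, Iars and Vars each passed in at least 1 comparison. Of 13 tested, 3 were higher with filaments at 8 h and 0 at 22 h, and 2 with dendritic cells at 8 h and 1 at 22 h, and none was lower past the threshold in these 4 comparisons. Their median log2 fold change was 0.51, 0.47, 0.23 and 0.53 (IF 8 h, DC 8 h, IF 22 h, DC 22 h), and 11, 11, 9 and 12 of the 13 lay above 0. Without the second DC library at both times the median was 0.31 at 8 h and 0.07 at 22 h with dendritic cells, and 11 and 9 lay above 0. Wars (chr12:108860030-108894174, minus strand, GRCm38), which charges tryptophan and is known to be induced by interferon, had 29.2, 28.7 and 38.6 CPM in unstimulated libraries. It had 128, 72.3 and 129 CPM at IF 8 h, 67.2, 152 and 76.9 at DC 8 h, 47.4, 55.7 and 48 at IF 22 h, and 55.9, 136 and 43.2 at DC 22 h. All 12 stimulated libraries were above the unstimulated ones, with the IF libraries at 22 h all below those at 8 h. Wars rose 3.42-fold at IF 8 h (log2 1.77 ± 0.39, adjusted p = 0.0111) and 3.08-fold at DC 8 h (1.62 ± 0.39, 0.0171). At DC 22 h the log2 fold change was 1.29 ± 0.38 (adjusted p = 0.0506), and 0.65 (0.121) without the second DC library at both times. It passed there with DESeq2 (0.0121), without the low-count filter (1.29e-05), with library size alone (0.0125) and without DC 22 h replicate 1 (0.0485) or 3 (0.0132). The IF 8 h call ended without unstimulated replicate 1 (0.0534) or 2 (0.0553), and the DC 8 h call without unstimulated replicate 1 (0.0733) or 2 (0.0789) or DC 8 h replicate 2 (0.101).

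Eprs, which charges glutamate and proline from a single protein, had 112, 102 and 110 CPM in unstimulated libraries, 244, 175 and 210 at IF 8 h, 115, 203 and 130 at DC 8 h, 138, 124 and 120 at IF 22 h, and 156, 223 and 111 at DC 22 h. It rose 1.95-fold at IF 8 h (log2 0.96 ± 0.24, adjusted p = 0.0226), and 11 of 12 stimulated libraries were above the unstimulated range. The isoleucine enzyme Iars had 18.5, 19.9 and 13.5 CPM in unstimulated libraries, 42.1, 31.8 and 31.9 at IF 8 h, 26.1, 35.6 and 23.2 at DC 8 h, 24.6, 23.9 and 29.5 at IF 22 h, and 27.3, 43.1 and 19.5 at DC 22 h. Iars rose 2.04-fold at IF 8 h (1.03 ± 0.28, 0.0358), again with 11 of 12 stimulated libraries above the unstimulated ones. With 1 library left out, the adjusted p of Eprs was 0.0297 to 0.0995, under the threshold only without IF 8 h replicate 2, and that of Iars was 0.0557 to 0.143.

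The valine enzyme Vars had 66.5, 72.7 and 76.6 CPM in unstimulated libraries, 96.5, 71.6 and 105 at IF 8 h, 115, 117 and 97.6 at DC 8 h, 75.1, 86.5 and 95.6 at IF 22 h, and 109, 125 and 93.6 at DC 22 h. Only with dendritic cells were its libraries clear of the unstimulated range at both times. Vars rose 1.53-fold at DC 8 h (log2 0.61 ± 0.18, adjusted p = 0.0479) and 1.52-fold at DC 22 h (0.61 ± 0.18, 0.0464), and leaving out 1 library ended each call in 5 of 6 fits (adjusted p up to 0.15 and 0.142). Both calls also ended without the low-count filter (0.0631 and 0.0588) and without the second DC library at both times (0.0759 and 0.0995). The DC 22 h call ended with 2 groups only as well (0.0891). Whether the dendritic cell response of Vars differed from that to immunofilaments is given by the direct comparison, which did not pass at 22 h (log2 IF minus DC -0.35 ± 0.18, adjusted p = 0.363). Cars, for cysteine, had 25, 26.6 and 14.2 CPM in unstimulated libraries, 55.7, 47.7 and 38.8 at IF 8 h, 37.1, 51.4 and 25.8 at DC 8 h, 18.6, 22.8 and 33.4 at IF 22 h, and 27.3, 49.7 and 18.5 at DC 22 h. Its IF 8 h libraries did not overlap the unstimulated ones (1.11 ± 0.36, adjusted p = 0.0726), and Cars passed there with DESeq2 (0.0317), library size alone (0.0286), 2 groups only (0.0114) and no low-count filter (0.00276). Nars, for asparagine, had 87.2, 73.9 and 73.5 CPM in unstimulated libraries, 134, 119 and 115 at IF 8 h, 113, 148 and 103 at DC 8 h, 98.1, 89.6 and 97.5 at IF 22 h, and 97.2, 172 and 77.8 at DC 22 h, and 11 of its 12 stimulated libraries were above the unstimulated range. Its log2 fold change at IF 8 h was 0.65 ± 0.24 (adjusted p = 0.109). Nars passed there with 2 groups only (0.00995), library size alone (0.0306) and no low-count filter (0.0483). Library size alone also called it at DC 8 h (0.0298) and DC 22 h (0.0226), and it passed at DC 22 h without replicate 3 (0.0381). The seryl enzyme Sars went the other way in value, with group means of 192 CPM unstimulated and 144 to 175 CPM stimulated, without passing.

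A promoter window was found for 32 of the 41 members. It was not found for Slc7a5, Slc1a5, Slc38a1, Cth, Cars, Lars, Nars, Vars and Wars. The letters TGATGNAA were present on either strand in 10 of the 32 (31.2%), against 4.51% of the 27025 genes with a window. By role these were 5 of 8 synthetases (Aars with 2 matches, Gars, Iars, Tars and Yars), 3 of 8 ATF4 pathway genes, 1 of 5 transporters (Slc1a4) and 1 of 11 enzymes (Pycr1). The E-box CACGTG, a palindrome bound by Myc and other factors, was present in 4 of the 32 (12.5%), against 8.09% of genes: Aldh18a1, Aars, Iars and Tars. No TGATGNAA match overlapped an E-box match, and a match is a description of the sequence only. Stretches of 30 bases from Iars and Tars, whose windows hold both, are shown, again on the strand of the gene with the TGATGNAA match in capitals, since Iars passed a test and Tars did not.
Iars, chr13:49682126-49682155, plus strand: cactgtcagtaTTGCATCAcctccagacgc
Tars, chr15:11399655-11399684, minus strand: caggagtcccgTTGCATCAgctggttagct

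Aars, for alanine, had 50.8 to 62.8 CPM in unstimulated libraries and 34.3 to 122 CPM in stimulated ones, and Tars, for threonine, had 31.3 to 41.9 and 32.1 to 78.5 CPM. Neither passed in any comparison. The remaining synthetases were no different in this respect: Gars had 62.1 to 75 CPM unstimulated and 61.4 to 136 stimulated, Lars 50.6 to 76.2 and 45.5 to 97.7, Mars 24.4 to 33.3 and 21.3 to 60.2, and Yars 20.4 to 32.7 and 17.8 to 52.4. Their highest stimulated values were all from DC replicate 2. Aars shares exonic bases with Exosc6 on the same strand, so reads of either can have been counted for it.

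The direct comparison of the stimuli asks whether filaments and dendritic cells left these genes at different levels. At 8 h, 0 of 37 members passed, against 0.665% of all genes (0.231% higher and 0.434% lower). An unadjusted p under 0.05 was found for 4 members and for 896 of all 10831 genes, and 5 members did not overlap (13.5% of all genes). At 22 h, 0 passed, against 2.43% of all genes (1.23% higher and 1.20% lower). Here 3 members and 1656 of all 10831 genes had an unadjusted p under 0.05, and 1 member did not overlap (19.9% of all genes). DESeq2 called 1 member at each time, Slc38a1 at 8 h and Slc1a5 at 22 h, both higher with immunofilaments (all genes 194 and 563). All 7 tested transporters were above 0 for IF minus DC at 8 h, with log2 differences of 0.04 to 0.59 and a median of 0.51, against a median of -0.01 over all genes. Slc38a1 had 136 to 187 CPM with filaments and 108 to 128 with dendritic cells, a log2 difference of 0.53 ± 0.16 (adjusted p = 0.198), and Slc3a2 had 261 to 350 against 192 to 248 CPM (0.53 ± 0.20, 0.418). At 22 h, Slc1a5 was the member that did not overlap, at 298 to 372 CPM with filaments and 217 to 263 with dendritic cells (0.50 ± 0.15, 0.105), and 12 of 13 synthetases were below 0, at a median of -0.34. That direction rested on DC replicate 2: without it at both times 8 of 13 synthetases were above 0 at 22 h, at a median of 0.07, and the median of all members went from -0.19 to 0.13. At 8 h, 6 of 7 transporters were still above 0 without it, at a median of 0.64. In the same fit the calls for higher levels with filaments were Slc7a1 at 8 h (log2 1.14, adjusted p = 0.0109) and Slc7a1 (0.76, 0.0469) and Slc3a2 (0.77, 0.0214) at 22 h.

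With immunofilaments, most members had lower values at 22 h than at 8 h, none past the threshold. At IF 22 h against IF 8 h, 0 of 37 members passed, against 1.12% of all genes (0.637% higher and 0.480% lower). An unadjusted p under 0.05 was found for 4 members and for 1622 of all 10831 genes. The 7 transporters and 12 of 13 synthetases were below 0, with a median of -0.23 over the members and -0.01 over all genes, and 11 members did not overlap (21.5% of all genes). The largest such synthetase value was that of Wars, 72.3 to 129 CPM at 8 h and 47.4 to 55.7 at 22 h (log2 -1.13 ± 0.38, adjusted p = 0.172), followed by Cars (-0.92 ± 0.35, 0.232) and Eprs (-0.72 ± 0.24, 0.171). At DC 22 h against DC 8 h, 0 members passed, against 0.480% of all genes (0.379% higher and 0.102% lower). Here 2 members and 978 of all 10831 genes had an unadjusted p under 0.05. The groups did not overlap for 2 members (13.9% of all genes), which were Slc1a5 (-0.40 ± 0.15) and Slc38a1 (0.40 ± 0.16). DESeq2 called 0 members in both comparisons between the times (all genes 366 with filaments and 210 with dendritic cells). For a change of the IF-DC difference with time, 0 members passed, as did 0 of all genes (0%). An unadjusted p under 0.05 was found for 2 members and for 858 of all 10831 genes, and DESeq2 also called 0 members (40 of all genes).

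The DC libraries differed widely among themselves. Replicate 2 was the highest of 3 for 28 of 37 members at 8 h (75.7%, against 36.1% of all genes) and for 31 of 37 at 22 h (83.8%, against 39.2%). The median log2 ratio of replicate 2 to the mean of the other DC libraries was 0.52 at 8 h and 0.87 at 22 h over the members (on CPM + 0.5), and -0.05 and -0.04 over all genes. It was highest for 13 of 13 synthetases at both times, for 8 and 10 of 10 enzymes, for 4 and 6 of 7 transporters, and for 3 and 2 of 7 ATF4 pathway genes. Shmt1 at DC 22 h was 4.38-fold the mean of the other libraries, and Slc7a5 was 3.55-fold. Trib3 went against this, at 0.296-fold at 8 h and 0.298-fold at 22 h, and Slc38a2 was likewise the lowest of 3 at both times. Replicate 3, at the other end, was the lowest of the DC libraries for 24 members at 8 h (64.9%, against 33% of all genes) and 26 at 22 h (70.3%, against 32.6%). The depth of replicate 2, 7729279 counts at 8 h and 8185466 at 22 h, was within the range of the other DC libraries. The dendritic cell marker sums of replicate 2 were the lowest of the 3 DC libraries at each time, at 844 CPM at 8 h and 466 CPM at 22 h, as were the CD8 T cell marker sums of replicate 2, at 3898 and 4240 CPM, and the part of either in the member values was not tested. Without replicate 2 at both times the member median against unstimulated cells was 0.10 at DC 8 h and 0.03 at DC 22 h, and 4 and 5 members passed (all genes 706 and 700).

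**Figure D3:**
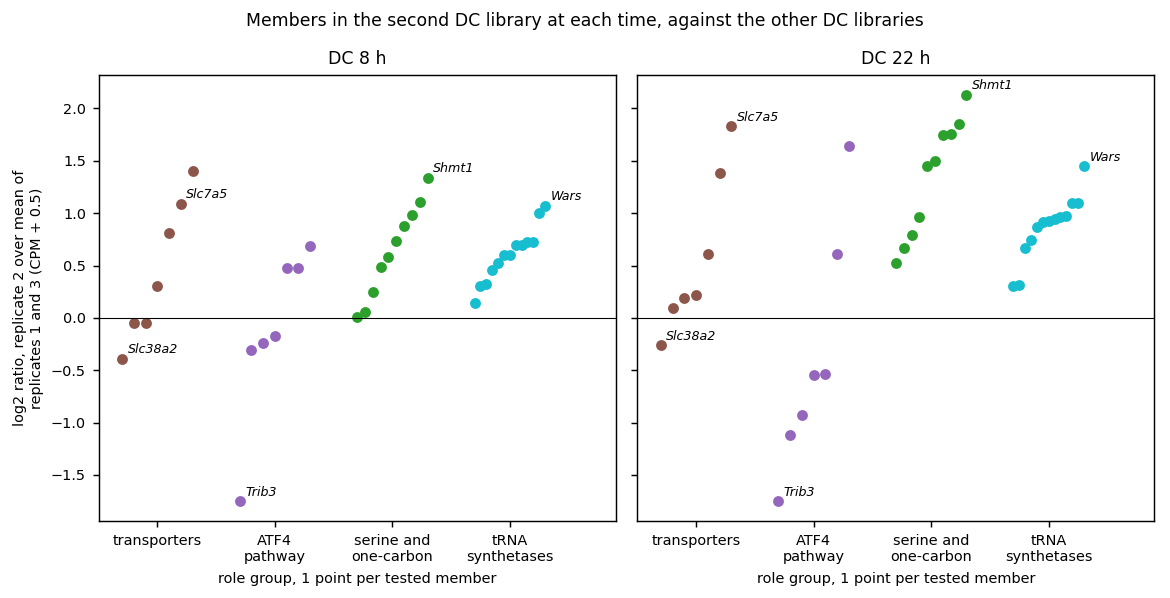
Log2 ratio of DC replicate 2 to the mean of DC replicates 1 and 3 (y axis, on CPM + 0.5) for each tested member, by role (x axis), at 8 h and 22 h. All 13 synthetases lie above 0 at both times and Trib3 lies lowest, at -1.75.

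Genes next to the module in the same pathways were taken from 6 further lists, 104 genes of which 102 were in the tables and 86 tested. Against unstimulated cells 3 were higher and 2 lower with filaments at 8 h and 4 and 5 at 22 h, and 2 were higher and 4 lower with dendritic cells at 8 h and 4 and 2 at 22 h. With filaments the share called was 5.81% at 8 h and 10.5% at 22 h, against 7.76% and 6.08% of all genes. With dendritic cells it was 6.98% at each time, against 6.82% and 7.76% of all genes. None of 10 other cytosolic synthetase and scaffold genes passed in these comparisons, and of 17 mitochondrial synthetases only Lars2 did, lower at IF 22 h (log2 -0.79 ± 0.23, adjusted p = 0.0488). Of 10 other transporters, the aromatic amino acid transporter Slc16a10 was lower at DC 8 h (-2.29 ± 0.51, 0.0114) and IF 22 h (-1.74 ± 0.49, 0.0464). The genes nearest to the threshold among the others did not pass, such as Kars at IF 8 h (0.68 ± 0.24, 0.103), Eef1e1 at DC 22 h (1.29 ± 0.50, 0.136) and Nars2 at IF 8 h (1.45 ± 0.55, 0.122).

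The list of 14 other stress response genes held the largest decrease of the 6 lists, that of Ppp1r15a (GADD34). This phosphatase subunit, which reverses eIF2 phosphorylation and is itself a target of ATF4, had 325, 354 and 438 CPM in unstimulated libraries. It had 34.1 to 64.8 CPM at IF 8 h, 35.6 to 66.1 at DC 8 h, 12.9 to 19 at IF 22 h and 14.7 to 22.9 at DC 22 h. The groups at each time were clear of the unstimulated libraries and, within a stimulus, of each other. The log2 fold changes of Ppp1r15a were -2.94 ± 0.28, -2.77 ± 0.28, -4.47 ± 0.30 and -4.21 ± 0.30, with adjusted p of 9.21e-06, 1.66e-05, 2.14e-07 and 3.23e-07, and it was lower at 22 h than at 8 h with filaments (-1.53 ± 0.28, 0.0137) and with dendritic cells (-1.44 ± 0.27, 0.0268). Cebpb, a transcription factor that pairs with ATF4, was lower in all 4 comparisons, with log2 fold changes from -2.26 to -1.36. The tRNA exporter Xpot was higher at IF 8 h (1.29 ± 0.32, 0.0211), Eif4ebp1 (0.95 ± 0.27, 0.0438) and Sesn1 (1.06 ± 0.30, 0.0471) at IF 22 h, and Cebpg at DC 22 h (0.77 ± 0.22, 0.0368). Eif2ak2 (PKR), an eIF2 kinase known to be induced by interferon, had 12.9, 11.4 and 10.7 CPM in unstimulated libraries, 4.05, 2.75 and 2.14 at IF 22 h and 14.3, 9.51 and 11.5 at DC 22 h. It was lower at IF 22 h than in unstimulated cells (-1.99 ± 0.36, 0.00321), and it was the only gene of the 6 lists to differ between the stimuli (4-fold lower with filaments, adjusted p = 0.00565).

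In the folate and methionine list 18 genes were tested. Tyms, the thymidylate synthase, had 3.26 to 3.96 CPM in unstimulated libraries and 7.35 to 21.6 at DC 22 h, a log2 fold change of 2.09 ± 0.45 (adjusted p = 0.00867). The folate hydrolase Ggh was lower at DC 8 h (-1.17 ± 0.25, 0.00876).

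Among 17 other amino acid and polyamine enzymes, Bcat1, the cytosolic branched-chain aminotransferase, had 1 count in the unstimulated group, 138 counts with filaments and 169 with dendritic cells at 8 h, and 442 and 390 counts at 22 h. The ratio of the pooled levels at IF 8 h was 186, with a 95% exact interval for counting error of 32.8 to 7395. It passed in all 4 comparisons (adjusted p = 0.0106, 0.0196, 0.00924 and 0.00554). Odc1, the first enzyme of polyamine synthesis, had 77.9 to 85.7 CPM in unstimulated libraries, 124 to 224 at IF 8 h and 165 to 241 at DC 8 h. It rose by 1.16 ± 0.30 and 1.26 ± 0.29 on the log2 scale at 8 h (0.0247 and 0.0154), and did not pass at 22 h. As for most members, Bcat1 and Odc1 were highest in replicate 2 among the DC libraries, at 14.5 and 32.2 CPM for Bcat1.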

How the data were processed

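The authors sorted T cells and prepared libraries with an adapted CEL-seq protocol, per the labels' protocols: barcoded reverse transcription from the 3′ end, pooling, amplification by in vitro transcription and paired-end sequencing. The authors deposited a table of counts per gene for each of 15 samples, as whole numbers without normalization. The submitters' processing notes name BWA and mm10. The counting program, the use of strand and of molecular identifiers are not given in the sources used here, so intervals and limits cover counting error only. Levels were not compared between genes.

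The counts were tested with edgeR 4.0.16 under R 4.3.3, using filterByExpr (minimum count 10, minimum total 15), TMM scaling, 1 quasi-likelihood fit with 5 group means over 15 libraries, 9 two-sided comparisons, Benjamini-Hochberg adjustment over all 10831 genes tested, threshold 0.05. Fold changes use a prior count of 0.125 and carry standard errors (SE). Total counts per library were 2892874 to 19806730. In data simulated for IF 8 h against unstimulated (10603 genes), the fit recovered 35 of 100 genes changed by a log2 of 1 and 90 of 100 changed by a log2 of 2, with 6 false calls.

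The members and lists were chosen with earlier results of these data known. Every library's value is given for the 6 tested members of each role with the smallest p over the 4 comparisons with unstimulated cells; from each further list up to 3 genes with the smallest p in any comparison could be named. Xpot, Eif4ebp1, Sesn1 and Cebpg were added after their values were seen. Some results of the further lists and promoter windows are not reported here. Alternatives were DESeq2 size factors, library size alone, no low-count filter, DESeq2 1.42.0, only the groups compared, the replicate number as a block, leaving out each library, and leaving out both low-rRNA libraries; leaving out the second DC library at both times was chosen after seeing the data. Promoter windows are from RefSeq (GRCm38.p6), gene positions from GENCODE vM21.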

Additional observations from a re-analysis of the deposited data

How the results depend on the processing

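Apart from Trib3 in each comparison with unstimulated cells and Slc38a2 at 22 h, each call was lost in at least 1 fit that left out 1 library, and fits with 1 library fewer called 283 to 984 of all genes against unstimulated cells. Members passing then numbered 1 to 6 at IF 8 h (1 without unstimulated replicate 1 or 2, 3 without unstimulated replicate 3, 2 without IF 8 h replicate 1 or 3), 1 to 5 at DC 8 h (1 without DC 8 h replicate 2, 2 without unstimulated replicate 1 or 3, 3 without unstimulated replicate 2 or DC 8 h replicate 1), 2 to 4 at IF 22 h (2 without unstimulated replicate 3) and 2 to 15 at DC 22 h (15 without DC 22 h replicate 3, 2 without unstimulated replicate 1 or 3, 4 without any other). They numbered 0 to 1 for IF against DC at 22 h (1 without DC 22 h replicate 2, where 265 of all genes passed) and 0 to 0 in the other comparisons. No member past the threshold reversed direction. At IF 8 h, the count of 8 became 13 with library size alone, 13 without the low-count filter and 14 when the fit held only the 2 groups, where calls over all genes went from 840 to 1113, 1167 and 1299. At DC 8 h, the replicate block gave 3 in place of 5 (all genes 739 to 714). At IF 22 h, 4 became 7 with 2 groups only and 1, Trib3, without both low-rRNA libraries (all genes 658 to 993 and 99). At DC 22 h, 8 became 3 with 2 groups only and 5 without the second DC library at both times (all genes 840 to 517 and 700). DESeq2 called 12, 7, 4 and 11 members at IF 8 h, DC 8 h, IF 22 h and DC 22 h (all genes 1269, 1175, 1066 and 1267). IF against DC had 1 call at 8 h with DESeq2 and 1 without the second DC library (all genes 194 and 98). At 22 h it had 1 without the filter (Mthfd2), 1 with DESeq2 and 2 without the second DC library (all genes 706, 563 and 346). IF 22 h against IF 8 h had 4 calls without the filter and 1, Wars, with 2 groups only (all genes 121 to 502 and 100). The cause was not tested.

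The numbers were not treated as pairing the libraries, since 4 of 30 same-numbered pairs of different groups had deviations correlated over 0.1 (-0.19 to 0.40, median 0.00), as had 5 of 60 other pairs. As a hint from the data, 9 of 15 libraries correlated best with their own number. Among the members, DC replicate 2 was the highest of 3 for 28 of 37 at 8 h and 31 of 37 at 22 h. With the replicate block 9, 3, 4 and 6 members passed against unstimulated cells at IF 8 h, DC 8 h, IF 22 h and DC 22 h (all genes 767, 714, 638 and 785). In each of the other comparisons 0 members passed (all genes 0 to 245). The block ended the calls of Vars at DC 8 h (adjusted p = 0.0674) and DC 22 h (0.0657), Atf5 at DC 8 h (0.0543) and Psat1 at DC 22 h (0.0673), and added Cars at IF 8 h (0.0482).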

Other observations

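The immunofilament libraries also differed among themselves across the members. At IF 8 h, replicate 1 was the highest of 3 for 22 of 37 members (59.5%, against 31.8% of all genes) and replicate 2, the shallowest library with 2892874 counts, was the lowest for 23 (62.2%, against 35.8%). At IF 22 h, replicate 1 was the lowest for 24 members (64.9%, against 41.1%), among them 10 of 10 enzymes, and replicate 3, a low-rRNA library and the deepest with 19806730 counts, was the highest for 24 (64.9%, against 32.7%). In the unstimulated group no library was highest for more than 14 of the 37.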
